A study of Mus musculus with 4 samples.

Results

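A set of 7 mouse loci, holding the genes Zfp609, Atxn7l1, Phtf2, Sdhaf1, Smc4, Mir15b, Mir16-2, Coro2a and Rhoh, was described across 4 whole-genome bisulfite sequencing libraries of spleen CD4+ T cells. The members were selected on their Treg minus Teff methylation difference in these same libraries: they were less methylated in regulatory T cells (Treg) than in effector T cells (Teff) while not being well-known Treg genes. The Treg against Teff values below therefore chose the members, and they are given as a description: calls on them are counted, and nothing is read from those counts. The 9 genes are 9 of the 49997 genes in the RefSeq gene table used. Mir15b and Mir16-2 lie inside Smc4, so that the 9 genes form 7 loci, each taken as the gene with 5 kb on either side. The loci hold 9239 of the 25374149 cytosine positions listed, 1327 of the 4795507 positions with at least 5 reads in every library, and 100 of the 314531 windows of 1 kb that could be compared in all 4 libraries.

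The 4 libraries crossed cell type with treatment, with 1 library in each of the groups OX40L-JAG1 Treg, OX40L-JAG1 Teff, PBS Treg and PBS Teff. All came from NOD mice, an inbred strain that develops autoimmune diabetes, and no other allele is given. Mice got OX40L and Jagged-1 proteins, or PBS, weekly for 3 weeks from an age of 6 weeks, and cells were sorted 1 week after the last dose, at 10 weeks of age. OX40L binds OX40, a costimulatory receptor of T cells, and Jagged-1 binds Notch receptors. Treg are CD4+CD25hi cells and Teff are CD4+CD25- cells by flow sorting, so that each is a surface phenotype, and the number of animals behind a library is not stated. The study asks how methylation differs between the cell types and between the treatments. With 1 library per group no spread between animals could be measured, every test below compares libraries and not conditions, and all intervals cover counting error alone.

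Cytosines followed by guanine carry most of the DNA methylation of mammalian cells. Treg keep a set of stretches free of methylation at genes such as Foxp3 and Ikzf2, and this pattern marks the stable lineage. The genes described here have other known roles. Zfp609 encodes a zinc finger protein known in mice from neuronal development. Atxn7l1 encodes a relative of ataxin-7, a subunit of the SAGA histone acetyltransferase complex. Phtf2 was named as a putative homeodomain transcription factor. Smc4 encodes a core subunit of condensin, which compacts chromosomes in mitosis, and the microRNAs inside it belong to the miR-15/16 family, which represses cell cycle and survival genes such as Bcl2. Sdhaf1 encodes an assembly factor of succinate dehydrogenase in mitochondria. Coro2a encodes a coronin, a protein that binds actin, and Rhoh encodes a protein of blood cells that mouse T cells need for signalling from the T cell receptor.

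The microRNA sequences are shown because both microRNAs are members and their hairpins hold 6 of the 521 cytosine positions listed at the Smc4 locus. In the 5p arms of Mir15b and Mir16-2, given 5′ to 3′ from RefSeq for the build GRCm38.p6, the capitals mark the seed, bases 2 to 8.
miR-15b-5p: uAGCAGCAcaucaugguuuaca
miR-16-5p: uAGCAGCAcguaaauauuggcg
The seed is the same in both, and 11 of the 1738 mature microRNAs in the table carry it. In the hairpins, which lie on the plus strand of chromosome 3 at chr3:69009772-69009835 and chr3:69009902-69009996, the capitals mark CG.
Mir15b hairpin: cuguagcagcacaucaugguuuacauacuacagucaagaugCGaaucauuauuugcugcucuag
Mir16-2 hairpin: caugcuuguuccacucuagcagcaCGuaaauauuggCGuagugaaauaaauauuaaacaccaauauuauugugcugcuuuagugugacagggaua
The CG of the Mir15b hairpin forms bases 1 and 2 of its 3p arm. The 2 CG of the Mir16-2 hairpin fall at bases 9 and 10 and at bases 21 and 22 of miR-16-5p, outside the seed.

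The hairpin cytosines were less methylated in Treg under both treatments. Read counts were summed over the hairpin cytosines that each library covered, and a read is counted at every cytosine it spans. Of these counts, 0 of 17 were methylated in OX40L-JAG1 Treg, 35 of 57 (61.4%) in OX40L-JAG1 Teff, 5 of 27 (18.5%) in PBS Treg and 34 of 36 (94.4%) in PBS Teff. If each count were a separate molecule, the count of 0 would allow a level of up to 17.6%. The 95% Wilson intervals, under the same assumption, were 48.4% to 72.9% in OX40L-JAG1 Teff, 8.18% to 36.7% in PBS Treg and 81.9% to 98.5% in PBS Teff. Fewer molecules may lie behind the counts, so that the limit may be higher and the intervals wider. These sums do not rest on the same cytosines, since 3, 6, 4 and 5 of the 6 were read in OX40L-JAG1 Treg, OX40L-JAG1 Teff, PBS Treg and PBS Teff. At the 2 that all libraries read, both in Mir16-2, the levels at 69009927 were 0%, 71.4%, 12.5% and 83.3% in OX40L-JAG1 Treg, OX40L-JAG1 Teff, PBS Treg and PBS Teff. At 69009939 they were 0%, 57.1%, 11.1% and 100% in the same order. Each of these values rests on 5 to 14 reads, and both Treg libraries lay below both Teff libraries at both cytosines. Both lie on the minus strand within miR-16-5p and may be covered by the same reads, so they are not separate observations.

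The libraries differed in depth and in overall level. Listed reads ran from 103584075 in OX40L-JAG1 Treg to 208402911 in PBS Teff, and a window held a median of 71, 92, 85 and 115 reads in OX40L-JAG1 Treg, OX40L-JAG1 Teff, PBS Treg and PBS Teff. Over all positions read in every library 82.2%, 81.6%, 84.9% and 85.2% of reads were methylated in these groups, so that the cell types lay closer to each other than the treatments. Mitochondrial cytosines, a reading of incomplete conversion, stood at 0.619% to 0.712%. As a check of the sort labels, among 9 Treg marker genes, 4 (Foxp3, Il2ra, Ikzf2 and Ikzf4) had at least 1 window called lower in Treg in each pair, as 0.298% of protein-coding genes with a window did. Other lists held 24 markers of myeloid cells, of B cells, and of CD8 T or NK cells. Of these, 6 myeloid, 8 B cell and 8 CD8 T or NK genes had a window. None of them had a window called lower in Treg in each pair. At a share as small as 0.298%, none would be likely among so few genes, so their absence does not check the sort. The Foxp3 locus stood at 64.9% in OX40L-JAG1 Treg, 81.7% in OX40L-JAG1 Teff, 70.0% in PBS Treg and 87.8% in PBS Teff.

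Each locus was followed through its lead window, the window of 1 kb whose Treg minus Teff difference was lowest when the pair nearer to 0 was taken. A low stretch that overlaps it was marked, a run of neighbouring cytosines at least 20 points lower in Treg in both pairs. The stretch may reach beyond the window, as at Smc4. All values of windows and stretches are sums of reads over their cytosines. A read is counted at every cytosine it spans, so fewer molecules lie behind them. Positions are those of mm10, the build of the files.

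**Figure D1:**
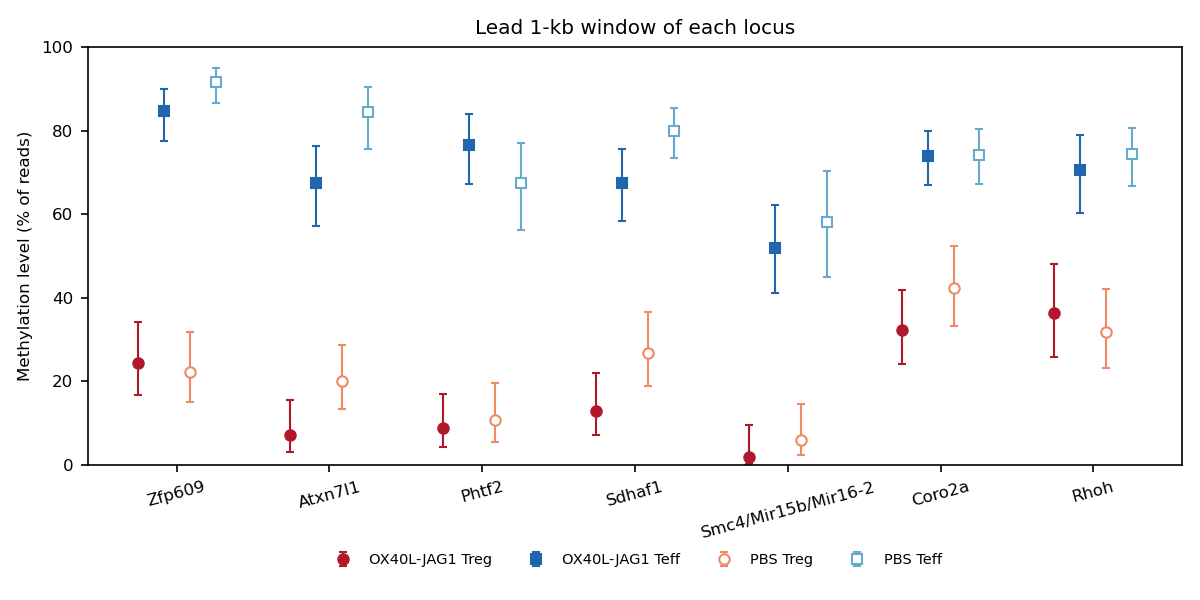
Methylation level in percent of reads of the lead window of each locus in each library, with bars for the 95% Wilson interval (counting error alone). In every locus both Treg libraries, between 1.82% and 42.4%, lie below both Teff libraries, between 51.8% and 91.7%.

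Among the genes tied to transcription, Zfp609 on chromosome 9 (gene 214812, 65691578 to 65827564) had the widest gap in the PBS pair. In the window at 65773001 to 65774000 it stood at 24.4% in OX40L-JAG1 Treg, 84.7% in OX40L-JAG1 Teff, 22.3% in PBS Treg and 91.7% in PBS Teff, over 6 cytosines with 90, 131, 94 and 168 reads. The differences between Treg and Teff were -60.3 points in the OX40L-JAG1 pair (95% Newcombe interval -69.6 to -48.2) and -69.3 points in the PBS pair (-77.3 to -58.6). The low stretch took up 191 bases, 65773782 to 65773972, and lies 82204 bases from the lower and 53592 bases from the upper bound of the gene. The outermost cytosines of the stretch stood at 41.7% and 20% in OX40L-JAG1 Treg, against 94.7% and 81.8% in OX40L-JAG1 Teff. In the PBS pair they stood at 30.3% and 22.2% in PBS Treg, against 97.6% and 86.4% in PBS Teff. The next cytosines read in all libraries, 1614 bases below and 627 bases above, were at 82.4% or more in every library. The window just above, 65774001 to 65775000, stood at 84.2% in OX40L-JAG1 Treg, 95.7% in OX40L-JAG1 Teff, 74.4% in PBS Treg and 97.8% in PBS Teff, and was at least 20 points lower in the PBS pair alone. Over the 15 windows besides the lead window the values centred near 0, with a median Treg minus Teff value of 1.13 points for the OX40L-JAG1 pair and -1.38 points for the PBS pair.

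Atxn7l1 on chromosome 12 (gene 380753, 33146968 to 33376408) held 2 separate windows that were lower in Treg. The lead window at 33164001 to 33165000 stood at 7.04% in OX40L-JAG1 Treg, 67.4% in OX40L-JAG1 Teff, 20% in PBS Treg and 84.4% in PBS Teff, over 5 cytosines with 71, 89, 105 and 90 reads. The differences were -60.4 points in the OX40L-JAG1 pair (-70.1 to -47.1) and -64.4 points in the PBS pair (-73.4 to -52.1). All 5 cytosines formed the low stretch of 280 bases, 33164086 to 33164365, which begins 17118 bases inside the lower gene bound. At its first cytosine the levels were 25.0% in OX40L-JAG1 Treg, 64.3% in OX40L-JAG1 Teff, 46.2% in PBS Treg and 80.0% in PBS Teff, and at the next, 33164174, they were 0%, 65.0%, 4.76% and 82.4%. Both Treg libraries were thus higher at the lower edge of the stretch than at this next cytosine, while at the upper edge, 33164365, they stood at 5.26% in OX40L-JAG1 Treg and 22.2% in PBS Treg. The neighbouring cytosines read in all libraries, 429 bases below and 4600 bases above, were at 81.8% or more in every library. A nearer one, 33164498, had no value in OX40L-JAG1 Treg and stood at 87.5% in OX40L-JAG1 Teff, 71.4% in PBS Treg and 100% in PBS Teff. The other window, 33284001 to 33285000, stood at 24.3% in OX40L-JAG1 Treg, 47.9% in OX40L-JAG1 Teff, 34.8% in PBS Treg and 84.7% in PBS Teff, over 9 cytosines with 173, 240, 184 and 249 reads. Here the gap was wider in the PBS pair, at -50 points, than in the OX40L-JAG1 pair, at -23.6 points.

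Phtf2 on chromosome 5 (gene 68770, 20758664 to 20882137) had the widest gap of the OX40L-JAG1 pair. Its window at 20816001 to 20817000 stood at 8.75% in OX40L-JAG1 Treg, 76.6% in OX40L-JAG1 Teff, 10.7% in PBS Treg and 67.6% in PBS Teff, over 6 cytosines with 80, 94, 75 and 74 reads. The differences were -67.8 points in the OX40L-JAG1 pair (-76.5 to -55.3) and -56.9 points in the PBS pair (-67.8 to -42.5). The low stretch of 339 bases, 20816123 to 20816461, lies near the middle of the gene, 57459 bases from the lower and 65676 from the upper bound. The cytosines at 20816293 and 20816360 were at 0% in OX40L-JAG1 Treg. The last cytosine before the stretch that all libraries read, 452 bases away, was at 100% in all 4. Between them, Phtf2 position 20815999 had no value in OX40L-JAG1 Treg and stood at 60% in OX40L-JAG1 Teff, 0% in PBS Treg and 83.3% in PBS Teff. Near the upper gene bound, the Treg minus Teff difference of window 20877001 was -25.2 points in the OX40L-JAG1 pair and -13.5 points in the PBS pair. For window 20878001 it was -16.1 and -21.2 points, and for window 20880001 it was -27.3 and 3.30 points, in the same order.

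**Figure D2:**
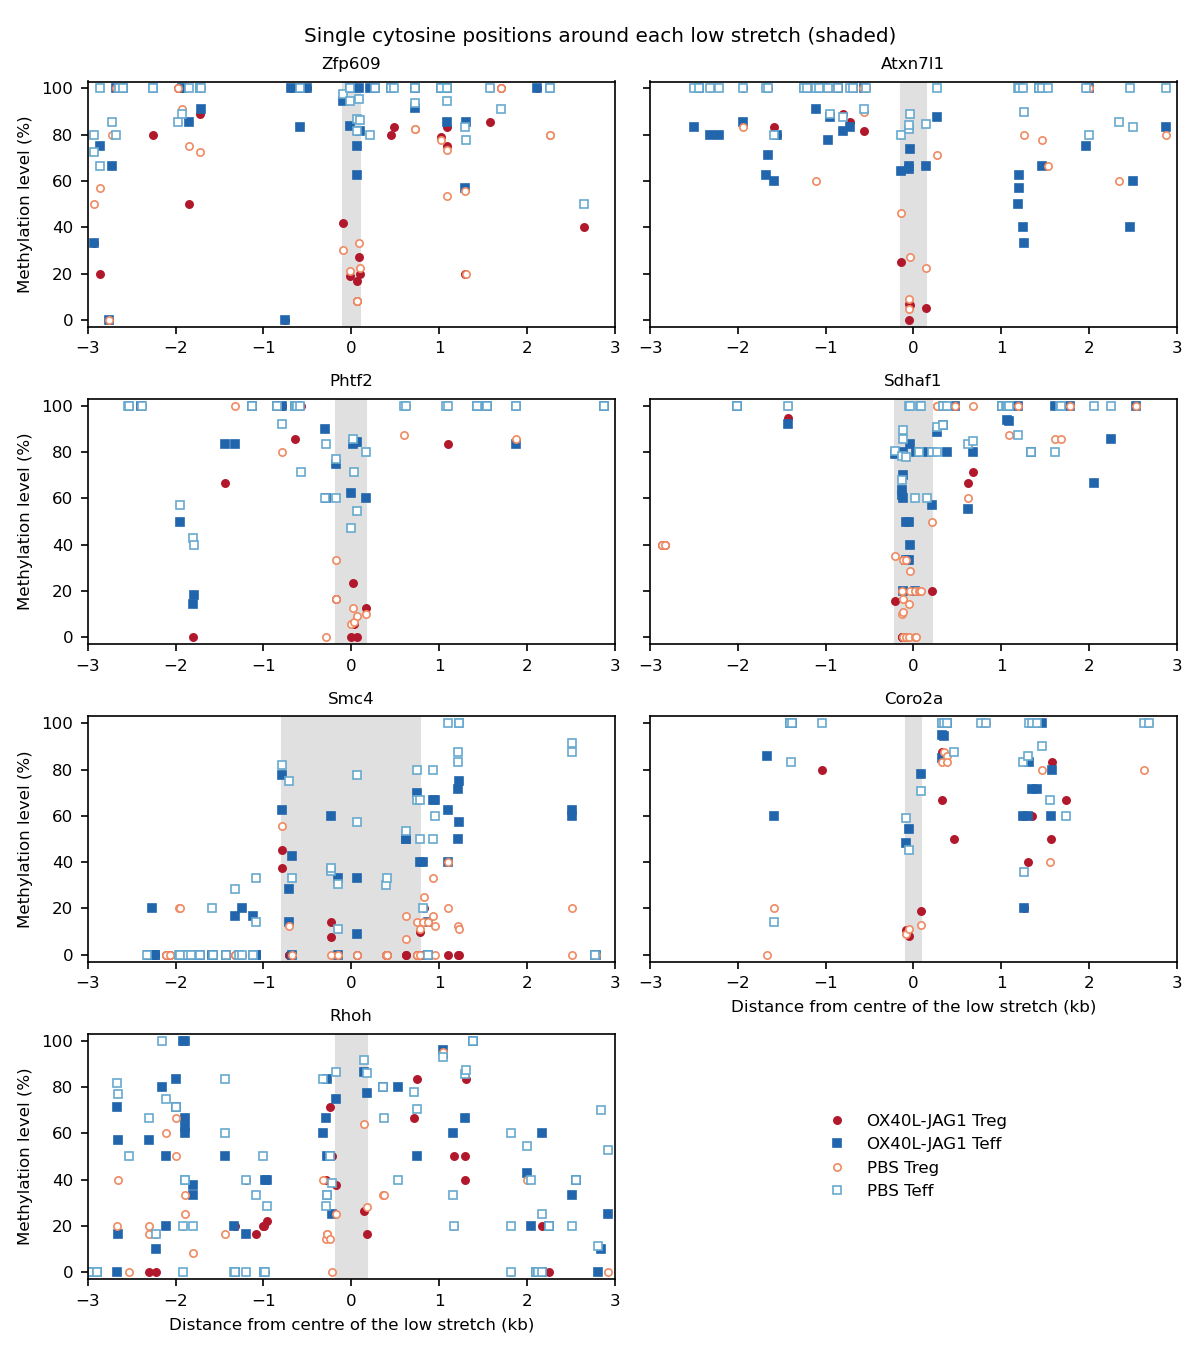
Methylation level in percent of single cytosines within 3 kb of the centre of each low stretch, with the distance in kb on the horizontal axis, every cytosine with at least 5 reads in a library drawn for that library, and the low stretch shaded. At Zfp609, Atxn7l1, Phtf2 and Sdhaf1 the Treg points drop inside the shaded stretch between flanks where most points are high. Exceptions include Zfp609 position 65773124, at 0% in OX40L-JAG1 Treg and OX40L-JAG1 Teff, and Sdhaf1 position 30327986, at 55.6% to 83.3%. At Smc4 most points of all libraries are near 0% on the left of the stretch, and at Rhoh the flanks are mixed.

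At Smc4 on chromosome 3 (gene 70099, 69004738 to 69034623) the low stretch lay next to an unmethylated start of the gene. The lead window at 69009001 to 69010000, which also holds Mir15b (gene 387175) and Mir16-2 (gene 723949), stood at 1.82% in OX40L-JAG1 Treg, 51.8% in OX40L-JAG1 Teff, 6.06% in PBS Treg and 58.2% in PBS Teff. This rests on 7 cytosines with 55, 83, 66 and 55 reads. The differences were -50 points in the OX40L-JAG1 pair (-60.5 to -36.8) and -52.1 points in the PBS pair (-64.7 to -36.5). The stretch ran over 1569 bases, 69007930 to 69009498, and was the longest of the 7. It begins 3192 bases above the lower gene bound and ends 274 bases before the Mir15b hairpin and 404 bases before that of Mir16-2. The first cytosine of the stretch stood at 37.5% in OX40L-JAG1 Treg, 77.8% in OX40L-JAG1 Teff, 55.6% in PBS Treg and 81.8% in PBS Teff. The cytosine just below the stretch, at 69007464, was at 0% in OX40L-JAG1 Treg, 20% in OX40L-JAG1 Teff, 0% in PBS Treg and 0% in PBS Teff. The cytosine just above the stretch, at 69009537, was at 0%, 40%, 14.3% and 20% in the same order, which missed the 20 points in the PBS pair. Beyond it, the 2 Mir16-2 cytosines read in all libraries met the rule again, and the other 4 hairpin cytosines could not be judged by it.

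**Figure D3:**
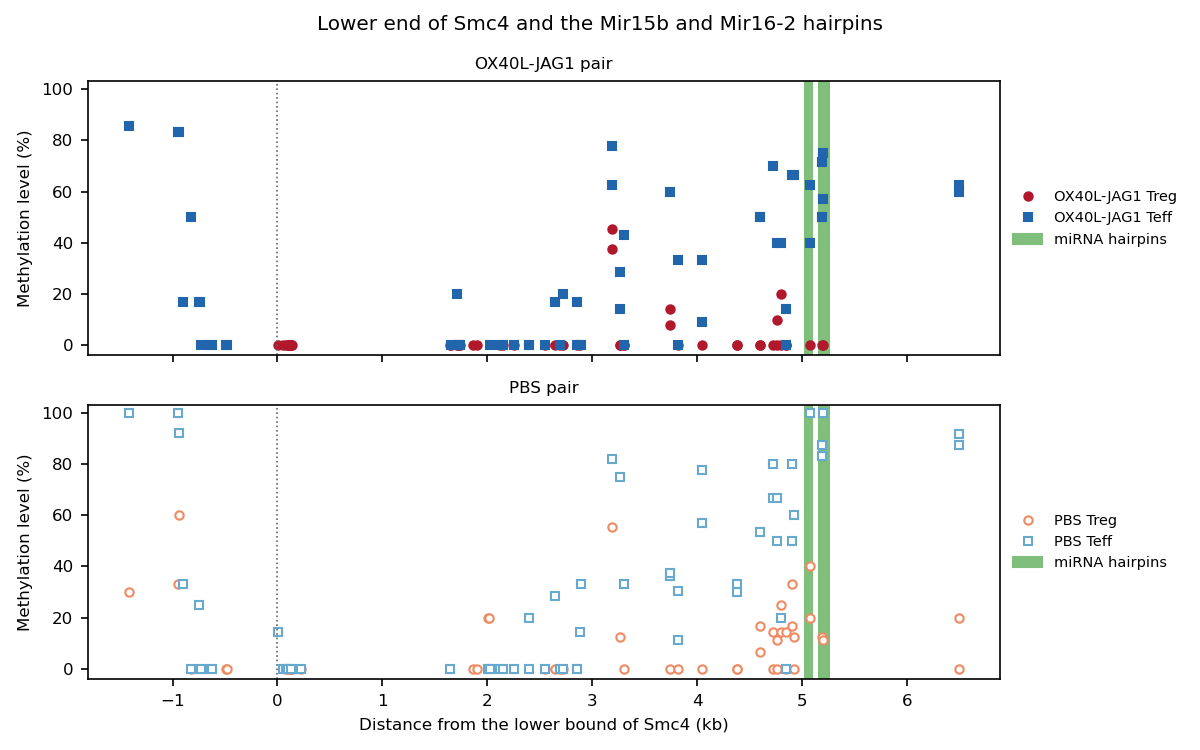
Methylation level in percent of single cytosines around the lower end of Smc4, by distance in kb from the lower gene bound, for the OX40L-JAG1 pair above and the PBS pair below, with the hairpins of Mir15b and Mir16-2 as green bars. Most cytosines from the gene bound to about 3 kb are near 0% in all libraries that read them, and from there to the hairpins the Teff points rise above the Treg points.

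Other windows of the Smc4 locus had gaps of the same direction. The window at 69031001 to 69032000, near the other end of the gene and within 5 kb of Trim59, stood at 64.6% in OX40L-JAG1 Treg, 88.5% in OX40L-JAG1 Teff, 52.8% in PBS Treg and 92.0% in PBS Teff. Below the gene, where Ift80 ends 58 bases away from it, some windows were read deeply enough in 1 pair. In the OX40L-JAG1 pair the window at 69001001 stood at 26.9% in Treg and 87.9% in Teff, and the window at 69002001 at 25.0% in Treg and 82.5% in Teff. In the PBS pair the window at 69003001 stood at 45.7% in Treg and 86.0% in Teff. In the windows read, Treg were thus lower than Teff on both sides of the unmethylated start of the gene. Inside the gene the window at 69012001 stood at 4.08% in Treg and 46.4% in Teff of the PBS pair.

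The low stretch listed under Sdhaf1 (gene 68332, chromosome 7, 30321409 to 30322375) lies outside that gene, 4783 bases beyond its upper bound. No gene of the table overlaps it, and the nearest other named gene is Syne4, 8113 bases away. The window at 30327001 to 30328000 stood at 12.8% in OX40L-JAG1 Treg, 67.6% in OX40L-JAG1 Teff, 26.9% in PBS Treg and 80.0% in PBS Teff, over 8 cytosines. The differences were -54.7 points in the OX40L-JAG1 pair (-64.6 to -41.8) and -53.1 points in the PBS pair (-62.7 to -41.3). It crosses the border of the locus at 30327375, and 6 of the 7 cytosines of its stretch of 416 bases, 30327158 to 30327573, lie inside that border. The 5 from 30327230 to 30327280 were at 0% in OX40L-JAG1 Treg, with 5 to 9 reads each, and at 0% to 33.3% in PBS Treg. The gene itself was hardly read, with 1 cytosine of its promoter window in each Teff library and none in the Treg libraries.

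Coro2a on chromosome 4 (gene 107684, 46536937 to 46601929) had the shortest stretch, 167 bases with 3 cytosines at 46557448 to 46557614. Over the stretch the levels were 13.2% in OX40L-JAG1 Treg, 63.0% in OX40L-JAG1 Teff, 11.7% in PBS Treg and 61.3% in PBS Teff, on 76, 108, 60 and 111 reads. The differences were -49.8 points in the OX40L-JAG1 pair (-60.1 to -36.5) and -49.6 points in the PBS pair (-60.0 to -35.6). The whole window at 46557001 to 46558000 was less far apart, at 32.4% in OX40L-JAG1 Treg, 74.0% in OX40L-JAG1 Teff, 42.4% in PBS Treg and 74.3% in PBS Teff, and it also holds 4 cytosines that stood at 66.7% or more in every library. The cytosine 242 bases above the stretch stood at 66.7% in OX40L-JAG1 Treg, 94.7% in OX40L-JAG1 Teff, 100% in PBS Treg and 100% in PBS Teff. Below the stretch, the nearest cytosine read in all libraries was 4014 bases away, so its lower border is not known and it may be longer. A window 10 kb higher, 46567001 to 46568000, stood at 33.1% in OX40L-JAG1 Treg, 57.0% in OX40L-JAG1 Teff, 24.2% in PBS Treg and 70.8% in PBS Teff, over 11 cytosines.

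Rhoh on chromosome 5 (gene 74734, 65860742 to 65896700) was lower in Treg in each of the 6 windows that could be compared, of the 47 that its locus spans. The lead window at 65886001 to 65887000 stood at 36.2% in OX40L-JAG1 Treg, 70.5% in OX40L-JAG1 Teff, 31.9% in PBS Treg and 74.3% in PBS Teff, over 8 cytosines with 69, 88, 91 and 148 reads. The differences were -34.2 points in the OX40L-JAG1 pair (-47.6 to -18.6) and -42.5 points in the PBS pair (-53.2 to -29.8). Its stretch of 359 bases holds 3 cytosines, and the cytosine 41 bases below it stood at 50% in OX40L-JAG1 Treg, 25.0% in OX40L-JAG1 Teff, 0% in PBS Treg and 38.5% in PBS Teff, so that the pairs differed there in direction. In these 6 windows the differences were -34.2 to -24.0 points in the OX40L-JAG1 and -42.5 to -13.2 points in the PBS pair. On each pair's own cytosines 8 of 13 windows were at least 20 points lower in Treg in the OX40L-JAG1 pair and 5 of 21 in the PBS pair. The window at 65889001 to 65890000 stood at 27.6% in OX40L-JAG1 Treg, 57.7% in OX40L-JAG1 Teff, 32.2% in PBS Treg and 69.4% in PBS Teff. It had 747, 813, 665 and 1172 reads over 11 cytosines, far more per cytosine than the other windows described, and whether its sequence occurs more than once in the genome was not tested. Summed over the locus, the level was 26.9% in OX40L-JAG1 Treg, 51.0% in OX40L-JAG1 Teff, 29.2% in PBS Treg and 54.6% in PBS Teff. Without that window it was 26.4% in OX40L-JAG1 Treg, 47.2% in OX40L-JAG1 Teff, 27.5% in PBS Treg and 44.8% in PBS Teff.

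**Figure D4:**
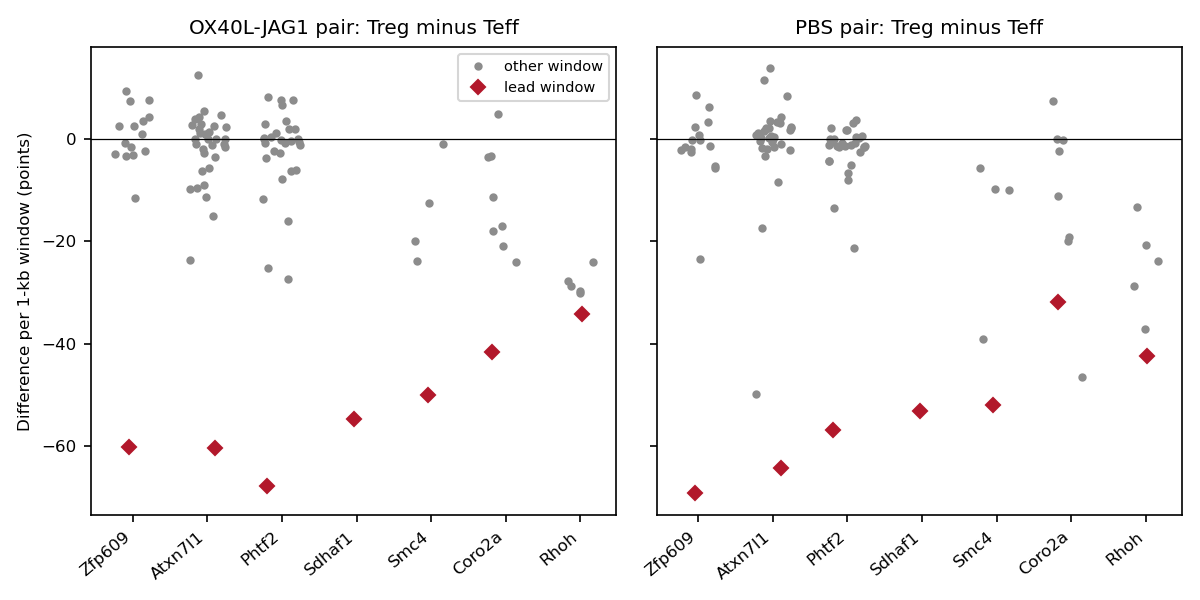
Treg minus Teff difference in percentage points of each window of the 7 loci, for the OX40L-JAG1 pair on the left and the PBS pair on the right, with the lead window as a red diamond and the other windows in grey. At Zfp609, Atxn7l1 and Phtf2 most grey points lie near 0. At Smc4 and Rhoh all windows, and at Sdhaf1 the only window, lie below 0 in both panels.

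The loci differed in how many of their cytosines were low. The share of cytosines at least 20 points lower in Treg in both pairs was 3.45% at Zfp609, 3.41% at Atxn7l1 and 3.06% at Phtf2, against 22.5% at Smc4, 13.8% at Coro2a, 34.5% at Rhoh and 46.2% at the Sdhaf1 locus, where 13 cytosines were read and all 6 low ones lay in the stretch. In all 104 of 1327 cytosines met this, where the share over the genome was 1.03%, and 68 of them lay outside the low stretches. The 7 stretches ran from 167 to 1569 bases with a median of 339 bases, and each of their 37 cytosines met the rule without a gap being bridged. Of these 37, 12 were at 0% in OX40L-JAG1 Treg and 6 in PBS Treg, while the rule itself excludes 0% in a Teff library. Their median level was 8.33% in OX40L-JAG1 Treg, 66.7% in OX40L-JAG1 Teff, 11.1% in PBS Treg and 80.0% in PBS Teff, with 5 to 58 reads at a cytosine. A level of 50% or more was held by 0 of them in OX40L-JAG1 Treg, 33 in OX40L-JAG1 Teff, 3 in PBS Treg and 33 in PBS Teff, and by 30 in both Teff libraries. The rule places Treg below Teff at each of these cytosines, so the direction of these values was fixed in advance.

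Of the 100 windows, 14 were called lower in Treg in the OX40L-JAG1 pair, where 0.0588% of all windows were, and 14 in the PBS pair, where 0.165% of all windows were. In both pairs together 12 were called, against 0.0337% of all windows, and none was called higher (0.0547% of all windows were in the OX40L-JAG1 pair, 0.115% in the PBS pair and 0.0223% in both). By size alone 14 were at least 20 points lower in both pairs, against 0.0986% of all windows. A window was called when the adjusted p of Fisher's exact test was under 0.05 and the difference at least 20 points. Nothing is read from these counts, since the contrast chose the members. When each pair was read on its own cytosines, 25 of 174 windows of the loci were at least 20 points lower in OX40L-JAG1 Treg than in OX40L-JAG1 Teff (0.530% of all windows). In the PBS pair 24 of 259 were at least 20 points lower in Treg (0.579% of all windows), and 1 was higher. That window, 46585001 to 46586000 in Coro2a, stood at 31.3% in PBS Treg and 0% in PBS Teff on 32 reads each.

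Ranked by the interval bound nearest 0 among the 61 genes lower in Treg in both pairs, Ikzf2 was at rank 1, and Zfp609, Atxn7l1, Phtf2 and Sdhaf1 were at ranks 2 to 5. Smc4, Mir15b and Mir16-2 shared rank 7 with Ift80, through the same window. Rhoh was at rank 16 and Coro2a at rank 28, between Foxp3 at rank 12 and Il2ra at rank 31. The rank of Rhoh rests on its window at 65889001 and was 30 without it. The ranking uses the contrast that chose the members, so nothing is read from their places in it. The windows with the most similar levels elsewhere, by the sum of the absolute differences over the 4 libraries, lay at Ikzf2 or Ikzf4 for 4 of the 7 loci. For Zfp609 it was a window of Ikzf2, the gene of the Treg transcription factor Helios, at 27.1% in OX40L-JAG1 Treg, 83.9% in OX40L-JAG1 Teff, 25.9% in PBS Treg and 91.7% in PBS Teff, a sum of 7.12 points. Another Ikzf2 window was nearest to Phtf2 (24.5 points) and to Sdhaf1 (18.8 points), and a window of Ikzf4, which encodes Eos, to Smc4 (38.8 points). Atxn7l1 was nearest to the Sdhaf1 window (17.3 points), Coro2a to Mcub (22.7 points) and Rhoh to Rere (16.3 points). These are likenesses over 4 libraries among 127440 windows. The lead windows were taken for their low values in Treg, so a likeness to other windows low in Treg follows in part from that choice.

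The treatment comparisons within Teff and within Treg did not choose the members, though they use the same libraries. In Teff, 2 of the 100 windows were called, 1 lower after OX40L-JAG1 (0.470% of all windows) and 1 higher (0.0884% of all windows). In Treg 0 of 100 were called, where 0.0814% of all windows were lower and 0.0194% higher. The interaction, by a Wald test in a logistic model, was called at 0 of 100 windows, against 0.0108% of all windows. In points it equals the Treg minus Teff difference of the OX40L-JAG1 pair minus that of the PBS pair. Those differences chose the members, and lead windows were taken for a gap in both pairs. The interaction counts are therefore given as a description. At an unadjusted p under 0.05 there were 17 windows in Teff, 12 in Treg and 7 for the interaction, against 15.9%, 9.48% and 4.98% of all windows. The shares at the loci in Teff and in Treg are thus near those of the genome, and nothing is read from that of the interaction. The median window difference was -0.97 points in Teff and -1.20 points in Treg at the loci, against -2.82 and -2.14 points over the genome.

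No lead window was called between treatments. In Teff the differences ran from -17.0 points at Atxn7l1 (-29.0 to -4.50, adjusted p 0.131 by Fisher's exact test) to 9.03 points at Phtf2 (-4.45 to 22.5, adjusted p 0.622), and 6 of the 7 lay below 0. In Treg they ran from -14.1 points at Sdhaf1 (-25.4 to -1.90, adjusted p 0.472 by Fisher's exact test) to 4.36 points at Rhoh (-10.1 to 19.0), and 5 of the 7 lay below 0. The intervals of the other lead windows reached as far as -23.0 points at Sdhaf1 in Teff and -22.8 points at Coro2a in Treg, so that a treatment difference of about 20 points at a lead window was within reach of the counting error. A p above the threshold does not show that the libraries were alike there.

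**Figure D5:**
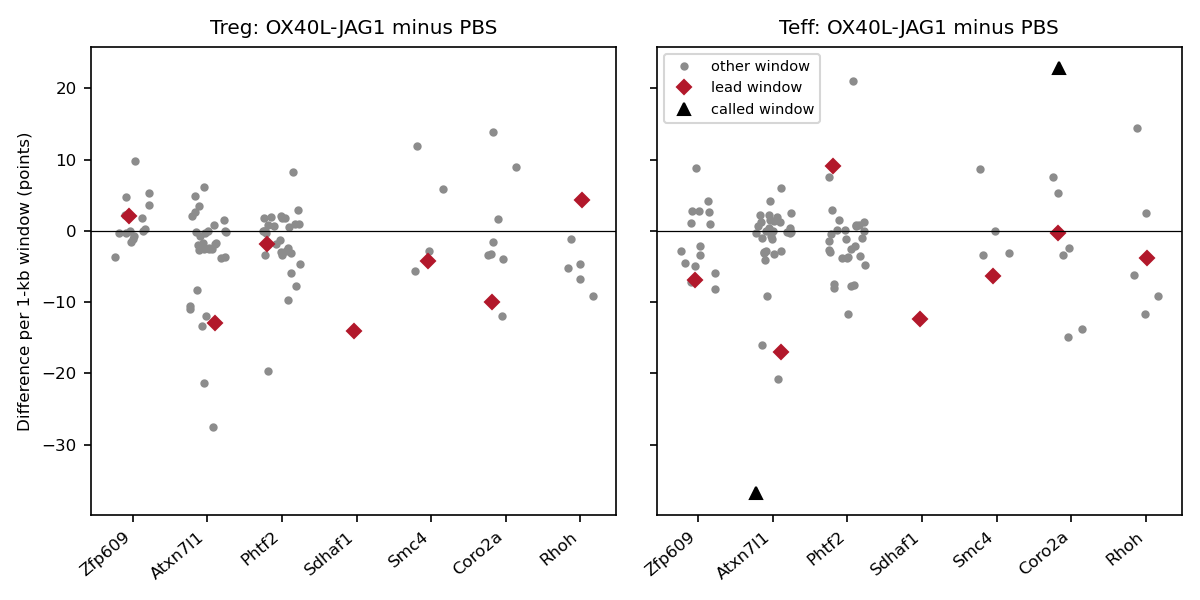
OX40L-JAG1 minus PBS difference in percentage points of each window of the 7 loci, for Treg on the left and Teff on the right, with lead windows as red diamonds, called windows as black triangles and the rest in grey. The called windows lie in Atxn7l1, at -36.8 points, and in Coro2a, at 22.8 points, both in Teff.

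The window called lower in Teff was the second low window of Atxn7l1, at 33284001. It stood at 47.9% in OX40L-JAG1 Teff and 84.7% in PBS Teff, a difference of -36.8 points (-44.2 to -28.8, adjusted p 2.03e-14 by Fisher's exact test). In the other cell type it stood at 24.3% in OX40L-JAG1 Treg and 34.8% in PBS Treg, -10.5 points apart (-19.7 to -1.02, adjusted p 0.478 by Fisher's exact test). The interaction, the treatment difference in Treg minus that in Teff, was 26.3 points and was not called (adjusted p 0.167 by the Wald test), so that Treg and Teff are not shown to differ in their treatment difference. The order of the libraries at this window was OX40L-JAG1 Treg, PBS Treg, OX40L-JAG1 Teff and PBS Teff from low to high, and the intervals of both Treg libraries overlapped. The call was kept in all 8 other settings tried, with an adjusted p of at most 0.0061 by Fisher's exact test. Not all of these tested the window anew. The difference was the same -36.8 points with 500 bp windows, with cytosines read in both Teff libraries and with at least 3 cytosines in a window. Centring on the median left its p unchanged.

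The window called higher in Teff was 46598001 to 46599000 in Coro2a. It stood at 31.3% in OX40L-JAG1 Teff and 8.45% in PBS Teff on 64 and 71 reads, a difference of 22.8 points (9.47 to 35.8, adjusted p 0.038 by Fisher's exact test). In Treg it stood at 20% in OX40L-JAG1 Treg and 6.12% in PBS Treg, 13.9 points apart (adjusted p 0.621 by Fisher's exact test). The call was kept in 3 of 8 other settings, and 1 of the 8 gave no value for this window. With cytosines read in both Teff libraries the difference was 17.7 points, with at least 3 cytosines in a window the adjusted p was 0.055 by Fisher's exact test, and with reads divided by 3 it was 1. This window was not among those low in Treg. Further windows, 3 in all, passed the adjusted p with a difference under 20 points. They were 65889001 in Rhoh, at 57.7% in OX40L-JAG1 Teff and 69.4% in PBS Teff (adjusted p 5.63e-05 by Fisher's exact test), 46577001 in Coro2a, at 73.1% in OX40L-JAG1 Teff and 88.0% in PBS Teff (adjusted p 0.0024 by Fisher's exact test), and 33239001 in Atxn7l1, at 86.8% in OX40L-JAG1 Treg and 97.8% in PBS Treg (adjusted p 0.049 by Fisher's exact test).

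Cytosines read in both Teff libraries gave 313 windows at the loci, with 5 called lower after OX40L-JAG1 (0.362% of all such windows) and 1 higher (0.0567%). Of the lower ones 3 were in Atxn7l1, and 2 of these lie within 5 kb of its lead window. The window at 33159001 stood at 74.6% in OX40L-JAG1 Teff and 96.3% in PBS Teff, and the window at 33165001 at 60.4% in OX40L-JAG1 Teff and 98.5% in PBS Teff (adjusted p 0.017 and 1.04e-04 by Fisher's exact test). Between 33158001 and 33175000, a span chosen after the values were seen, 7 windows of Atxn7l1 were at least 20 points lower in OX40L-JAG1 Teff than in PBS Teff, 2 of them called. Over the whole locus 9 of 110 were, 8.18%, against 1.61% of all such windows, with no test of that share. In Coro2a the window at 46576001 stood at 57.3% in OX40L-JAG1 Teff and 83.7% in PBS Teff. In Rhoh the window at 65883001 stood at 22.4% in OX40L-JAG1 Teff and 55.0% in PBS Teff, while the window at 65875001 was higher, at 66.7% in OX40L-JAG1 Teff and 28.6% in PBS Teff (adjusted p 0.0055 by Fisher's exact test). In the Treg libraries 0 of 142 such windows were called (0.0602% of all were lower, 0.0147% higher).

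The relatives of the members that could be compared held no window called lower in Treg in each pair. Of condensin genes 8, of coronins 7, of SAGA and ataxin-7 relatives 15, of succinate dehydrogenase genes 8, of miR-15/16 family genes 9 and of PHTF genes 2 were looked up. In the same order, 6, 4, 13, 7, 3 and 1 genes other than the members had a window that could be compared. Apart from the members themselves, 0 genes of these lists had a window called lower in Treg in each pair, where 0.298% of protein-coding genes with a window did. With so few genes and so small a share, the count of 0 does not set the relatives apart from the genome. The other copy of the family, Mir15a with Mir16-1 on another chromosome, was highly methylated in all libraries, with Mir16-1 at 95.7% in OX40L-JAG1 Treg, 96.9% in OX40L-JAG1 Teff, 96.9% in PBS Treg and 97.7% in PBS Teff. The locus of Mir16-2 stood at 14.4% in OX40L-JAG1 Treg, 45.7% in OX40L-JAG1 Teff, 17.3% in PBS Treg and 45.7% in PBS Teff. With 5 kb on either side it takes in most of the unmethylated start of Smc4, so its level is not that of the microRNA alone. The Mir16-2 hairpin itself stood at 0% in OX40L-JAG1 Treg, 63.6% in OX40L-JAG1 Teff, 11.8% in PBS Treg and 93.3% in PBS Teff. Those values rest on 11, 44, 17 and 30 read counts. Between treatments in Teff a window was lower in Coro7, Taf5l and Phtf1 and in the member Atxn7l1, and higher in the member Coro2a. Lower and higher windows were held by 3.80% and 1.13% of protein-coding genes. In Treg 0 genes of these lists held a called window, where 0.709% of protein-coding genes held a lower one and 0.265% a higher one.

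Promoters of the members were little read, and none showed a difference between cell types that could be measured. RefSeq promoter windows, 250 bases before to 50 after a start, were at hand for Atxn7l1, Coro2a, Phtf2, Rhoh and Sdhaf1, and were not at hand for Zfp609 and Smc4. The inner start of Coro2a and the start of Rhoh are shown because their cytosines were read in a Treg and a Teff library and stood at opposite levels. Both are printed 5′ to 3′ from RefSeq GRCm38.p6, with CG in capitals, at chr4:46566391-46566690 on the minus strand and chr5:65863334-65863633 on the plus strand.
Coro2a promoter: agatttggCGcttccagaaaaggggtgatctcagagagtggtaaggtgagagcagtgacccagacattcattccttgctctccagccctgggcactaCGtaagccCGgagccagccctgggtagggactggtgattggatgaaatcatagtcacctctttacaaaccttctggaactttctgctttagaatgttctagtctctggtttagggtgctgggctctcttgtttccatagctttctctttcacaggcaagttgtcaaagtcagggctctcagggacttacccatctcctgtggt
Rhoh promoter: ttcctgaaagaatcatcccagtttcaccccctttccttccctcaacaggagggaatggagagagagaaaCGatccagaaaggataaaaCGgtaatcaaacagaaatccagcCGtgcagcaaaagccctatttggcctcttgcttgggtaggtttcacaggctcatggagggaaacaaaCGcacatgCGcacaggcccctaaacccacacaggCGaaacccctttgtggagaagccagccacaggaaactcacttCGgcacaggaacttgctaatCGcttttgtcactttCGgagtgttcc
The Coro2a promoter holds 3 CG, and its reads were methylated at 100% in OX40L-JAG1 Treg, 92.6% in OX40L-JAG1 Teff, 92.3% in PBS Treg and 100% in PBS Teff, on 18, 27, 13 and 40 reads. It was thus high in both cell types. The whole window around it, 46566001 to 46567000, stood at 65.8% in OX40L-JAG1 Treg, 86.6% in OX40L-JAG1 Teff, 69.8% in PBS Treg and 89.0% in PBS Teff, -20.8 points in the OX40L-JAG1 and -19.2 points in the PBS pair, and the lower window at 46567001 lies on its upstream side. The Rhoh promoter holds 9 CG. Of the read counts there, 0 of 15 in OX40L-JAG1 Treg and 0 of 40 in PBS Teff were methylated. If each count were a separate molecule, this would allow levels of up to 20% and 7.5%. The counts are sums over 3 cytosines in OX40L-JAG1 Treg and 8 in PBS Teff, and a read is counted at every cytosine it spans. Fewer molecules may lie behind them, and the true limits may be higher. OX40L-JAG1 Teff and PBS Treg had no position with 5 reads there. Both strands were searched for 8 short motifs, those of forkhead, STAT, AP-1, RUNX, GATA, ETS, NF-kB and TCF/LEF factors. The Rhoh window held the ETS letters CAGGAA 3 times and no other motif of the 8, where 30.6% of the 32851 promoters of this length hold these letters. The Coro2a window held the RUNX letters TGTGGT 1 time, as 16.8% of promoters do. It also held the TCF/LEF letters CTTTGA 1 time, apart from the RUNX match, as 16% of promoters do.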

How the data were processed

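Genomic DNA of 4 libraries was bisulfite sequenced. The submitters' processing notes name Trimmomatic, Bismark and mm10. Their versions and settings, and whether duplicates were removed, are not given in the sources used here. Per the file headers, the deposited table gives a count of reads and a count of methylated reads at each cytosine, with the strands on separate lines. The authors' methylation level is deposited as a fraction equal to methylated reads over reads. No nonzero count in it is below 5: lower cover is listed at 0, and listed reads are not the sequencing depth.

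Reads were summed in fixed windows of 1 kb with at least 5 cytosines that had at least 5 reads in all 4 libraries. Treatments were compared with Fisher's exact test (two-sided) on the methylated and other reads, the interaction with a Wald test with 0.5 added to each cell. P-values were adjusted by the Benjamini-Hochberg method across the 314531 windows. A call needed an adjusted p under 0.05 and at least 20 points. Levels have Wilson and differences Newcombe intervals, both at 95% and for counting error alone. Neighbouring cytosines share reads, so p-values are too small and intervals too narrow. A low stretch overlaps the lead window, may bridge 1 cytosine that misses the rule, and has no gap over 1 kb. Genes, bounds and sequences are from RefSeq GRCm38.p6, the assembly of mm10, where the gene table gives neither strand nor exons, so exon, intron and untranslated region were not told apart. The genome sequence was not used here, and the low stretches are therefore given by position. Of the list genes, all but Mir497a were found in the gene table by symbol or synonym. Members, lists and motifs were chosen with earlier results of these data known. The text names the members, genes overlapping a low stretch, the most similar window of each locus, Foxp3, Ikzf2 and Il2ra, and list genes with a called window. Morrbid and other ranked genes are not described, and the list of relatives of 1 member is not reported here. Python 3.11.15, numpy 2.4.6, scipy 1.17.1 and pandas 2.3.3 were used, and the tests were tried on simulated reads.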

Additional observations from a re-analysis of the deposited data

How the results depend on the processing

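The count of windows called between treatments in Teff, 2 of 100, was 1 with at least 10 reads at a cytosine and 1 with all reads divided by 3, and 6 with cytosines read in the 2 Teff libraries, where 313 windows were compared. It was 2 or 3 in the 5 other settings, 1 of them, without cytosines of over 5 times the median reads, chosen after the data were seen. The Atxn7l1 window at 33284001 was called in every one of these settings, and the Coro2a window in those with 500 bp windows, 2 kb windows or differences centred on the median. Several of these settings left the reads of these windows unchanged. The counts of 0 in Treg and for the interaction held in all settings run. All 7 lead windows were at least 20 points lower in Treg in both pairs, which held for 4 of the 5 loci with a value when windows were moved 500 bp upstream and for 2 of 3 when moved 500 bp downstream. With 10 reads no lead window kept 5 cytosines. Of 44 lead window differences under other settings 38 stayed within their interval, 6 moved and 0 reversed, from -69.9 to -6.94 points. Some of the 38 rest on the same cytosines as the main setting and could not differ. Examples are Coro2a with each pair's own cytosines and Zfp609 with the window moved downstream. The median stretch of 339 bases was 160 bases with 10 reads, where Sdhaf1 kept 1 base (1 cytosine) of 416, Rhoh 38 of 359, Phtf2 68 of 339 and Smc4 861 of 1569. The Zfp609 stretch of 191 bases was 1398 bases when 2 cytosines could be bridged, and the Smc4 stretch of 1569 bases was 1018 bases when 30 points were asked for. Also chosen after the data were seen, the PBS pair alone gave 416 and the OX40L-JAG1 pair alone 409 bases as the median, with Rhoh at 621 in the PBS pair, and Zfp609 at 554 and Coro2a at 409 in the OX40L-JAG1 pair. Leaving out the Rhoh window of most reads per cytosine, also chosen after the data were seen, moved its rank to 30. Cover limits the stretches: between 10.0% and 23.8% of listed cytosines of a locus were read in all 4 libraries. No paired analysis was possible because each group has 1 library and the labels carry no replicate numbers.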
